A study of Mus musculus with 6 samples.

Results

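Cardiac muscle genes were followed in whole lungs of adult mice. Of 10 genes chosen as heart and pulmonary-vein myocardium genes, 9 had a named probe on the array. Together they had 10 probes, among 25697 probes in all, and no probe named for Tnnt2, the cardiac troponin T gene, was analysed here. The choice used the genes' known roles and not the mutant and control values, although earlier results of these data were known when it was made. RNA from the lungs of 3 mutant and 3 control mice was measured, a single Illumina bead array per mouse. The mutant mice were Tmem1002loxP/2loxP;ROSA26+/CreER and the control mice Tmem1002loxP/2loxP, so both groups carried the Tmem100 allele with loxP sites on both chromosomes. Tamoxifen was injected into the abdomen of every mouse 2 times at 0.1 mg/g, and lungs were taken 7 days later. CreER, the Cre recombinase that tamoxifen activates, was expressed from ROSA26, a locus active in most cell types, so its action was not limited to the lung or to endothelium. The control mice had no CreER, and effects of CreER itself and of the lost Tmem100 allele cannot be told apart here.

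Heart muscle contracts through sarcomeres, in which myosin thick filaments pull on actin thin filaments under the control of troponin, and titin spans the unit as a spring. Atrial and ventricular myocytes use different myosin light chains, and atrial myocytes also store atrial natriuretic peptide. In mice a sleeve of atrial-type cardiac muscle runs along the pulmonary veins into the lung, so transcripts of such muscle belong to normal lung tissue. RNA of a whole lung therefore reports how much of this muscle a sample held as well as how much RNA each cell made. Fewer cells of a type and less RNA per cell cannot be told apart in such samples. Which tissue the RNA of each member came from was not tested.

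The stretches upstream of the start sites are shown for Actc1, Myl3 and Myl7, whose promoters hold a CArG box (the binding motif of serum response factor, a regulator of muscle genes), and for Ttn, whose promoter holds a MEF2 box (the motif of the muscle regulators of the MEF2 family). Each runs 5′ to 3′ on the strand of the gene, with the motif in capitals, and comes from RefSeq on build GRCm38.p6. Actc1 lies at chr2:114052876-114053125 on the minus strand, Myl3 at chr9:110763428-110763677 on the plus strand, Myl7 at chr11:5898783-5899032 on the minus strand and Ttn at chr2:76982548-76982797 on the minus strand.
Actc1: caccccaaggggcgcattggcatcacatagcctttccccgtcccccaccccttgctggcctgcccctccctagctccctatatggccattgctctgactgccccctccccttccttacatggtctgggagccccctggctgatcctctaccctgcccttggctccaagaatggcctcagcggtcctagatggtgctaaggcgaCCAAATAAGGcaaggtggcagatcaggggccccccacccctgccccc
Myl3: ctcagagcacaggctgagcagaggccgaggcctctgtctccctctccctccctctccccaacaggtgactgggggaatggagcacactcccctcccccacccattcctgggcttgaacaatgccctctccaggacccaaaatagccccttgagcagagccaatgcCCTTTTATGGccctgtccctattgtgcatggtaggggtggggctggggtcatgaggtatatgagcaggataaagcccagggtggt
Myl7: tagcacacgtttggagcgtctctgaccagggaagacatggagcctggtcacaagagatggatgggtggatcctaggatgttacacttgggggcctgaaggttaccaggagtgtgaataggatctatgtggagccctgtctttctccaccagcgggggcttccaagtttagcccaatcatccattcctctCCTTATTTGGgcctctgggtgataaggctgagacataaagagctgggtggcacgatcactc
Ttn: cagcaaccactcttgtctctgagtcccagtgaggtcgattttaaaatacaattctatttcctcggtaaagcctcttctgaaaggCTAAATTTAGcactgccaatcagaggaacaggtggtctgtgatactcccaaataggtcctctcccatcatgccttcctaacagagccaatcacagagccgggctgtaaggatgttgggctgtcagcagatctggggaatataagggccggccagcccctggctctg

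A promoter entry existed for 9 of the 10 members, all but Sln. Tnnt2, which had no probe analysed here, was among the 9 and had 2 entries. Of these 9 members, 3 held a CArG box and 1 a MEF2 box in the 250 bases before the start site. Over all 32851 promoter entries of that length, 1.47% held a CArG box and 2.92% a MEF2 box. Both motifs are 10 bases long and read the same way on either strand, so both strands were covered. The CArG box began 47 bases before the start in Actc1, 61 in Myl7 and 85 in Myl3. A match describes these letters and does not show that a factor binds there.

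Mutant lungs held less of several cardiac transcripts than control lungs. Of 9 members tested, 4 fell, namely Myl3, Actc1, Ttn and Myl4, and none rose. Over all 9383 genes tested, 14.5% fell and 12.7% rose at the same threshold, an adjusted p of 0.05 in limma's moderated test. At an unadjusted p of 0.05, 7 members were lower and 0 higher, against 21.2% and 20.5% of all genes. The same 4 members were the ones whose groups did not overlap, mutants being lower, as was so for 24.5% of all genes. All 9 members had a negative difference, as did 48.9% of all genes. The median log2 difference was -1.23 over the members and 0.01 over all genes tested. Of the 5 ventricular or general sarcomere members tested 3 fell, and of the 4 atrial-type members 1. Ordered by the most negative difference among the 9383 genes, Myl3 stood at place 2, Actc1 at 7, Ttn at 133 and Myl4 at 283.

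**Figure D1:**
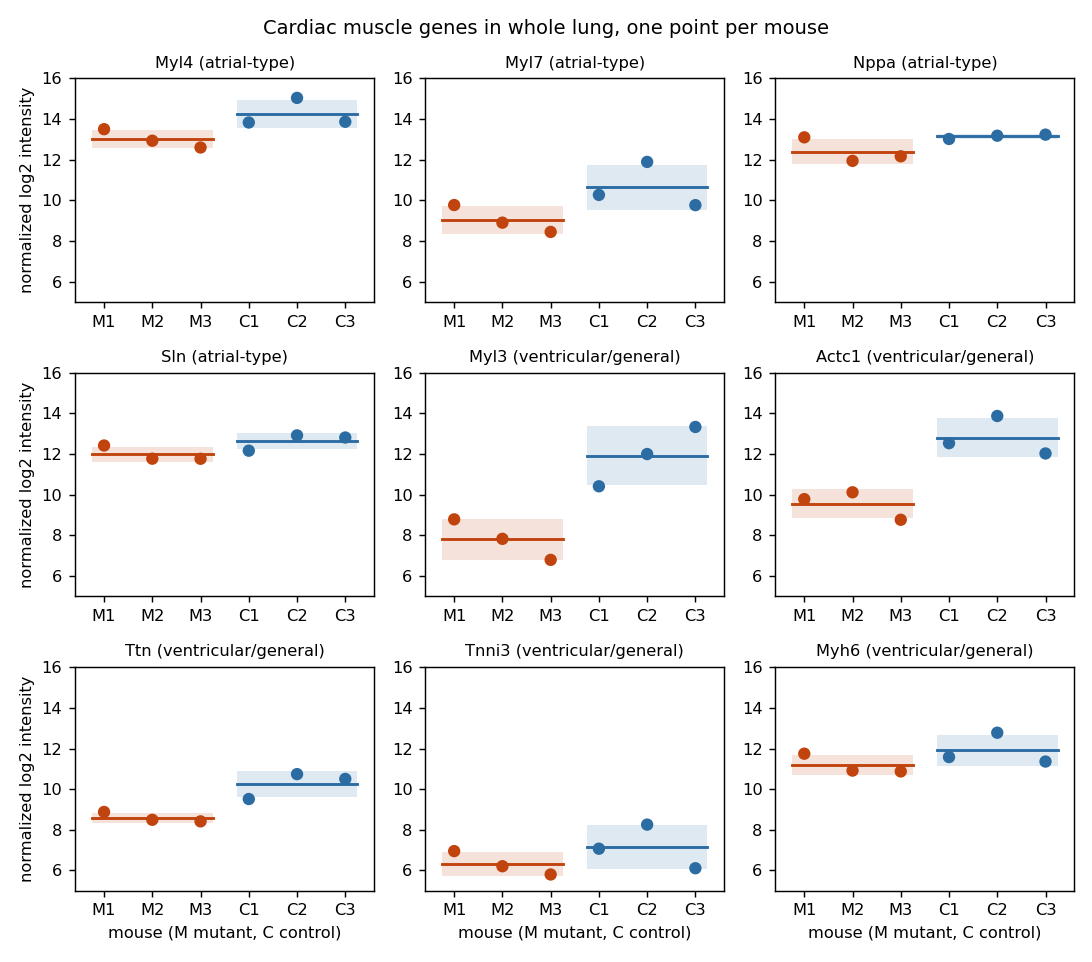
Normalized log2 intensity (vertical axis, 1 gene a panel) of each mouse, mutants M1 to M3 at the left and controls C1 to C3 at the right, with lines at the group means and shading of 1 SD either side. Mutants lie wholly below controls for Myl4, Myl3, Actc1 and Ttn, and the groups overlap for the other 5 genes.

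Myl3 encodes the essential myosin light chain of ventricles and of slow skeletal muscle. Its probe read 682, 479 and 375.0 intensity units in mutant mice 1, 2 and 3, against 2040, 4184 and 10353 in control mice 1, 2 and 3. After normalization the log2 intensities were 8.79, 7.83 and 6.80 in the mutants and 10.42, 12.005 and 13.34 in the controls. Every mutant lay below every control, and control mouse 3 was the highest of all. The mean was 17.3-fold lower in mutants, a log2 difference of -4.11 ± 0.78 (SE, n = 3 mice each; limma adjusted p = 0.0113). The 2 groups were each widely spread, with an SD of 1.00 among mutants and 1.46 among controls on the log2 scale, and the controls alone spanned 7.57-fold. The fold depends on the mice and on background correction. It was 29.1-fold without control mouse 1, 10.6-fold without control mouse 3, 8.17-fold without background correction and 8.28-fold with array weights. In the authors' processed values, taken without mutant mouse 1, it was 9.35-fold. The main normalization without mutant mouse 1 gave 24.4-fold.

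Actc1 encodes cardiac alpha actin, the thin filament protein of heart muscle. Its intensities were 1104, 1318 and 654 in mutant mice 1, 2 and 3, against 7733, 14566 and 4421 in control mice 1, 2 and 3. The normalized log2 values were 9.79, 10.12 and 8.77 in mutants and 12.54, 13.88 and 12.03 in controls. The lowest control stood 1.91 above the highest mutant on the log2 scale, the widest gap of any member. Actc1 was 9.56-fold lower in mutants (log2 -3.26 ± 0.52, adjusted p = 0.00736). It was also the only member whose highest mutant was mouse 2 and not mouse 1.

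Ttn encodes titin, which is shared by heart and skeletal muscle. Its log2 intensities were 8.88, 8.49 and 8.42 in the mutants and 9.52, 10.74 and 10.51 in controls 1, 2 and 3. The mutants were close together and control mouse 1 was the nearest control to them. Ttn was 3.16-fold lower in mutants (log2 -1.66 ± 0.32, adjusted p = 0.0119), with an SD of 0.25 among mutants and 0.65 among controls.

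The other 2 ventricular or general sarcomere genes did not pass. Myh6 encodes alpha myosin heavy chain, in the adult mouse the main heavy chain of atria and ventricles alike. Its brighter probe read 11.75, 10.92 and 10.88 in mutants 1, 2 and 3 and 11.58, 12.78 and 11.36 in controls 1, 2 and 3 on the log2 scale. Mutant mouse 1 lay above control mice 1 and 3, so the groups overlapped. The log2 difference was -0.73 (95% interval -1.69 to 0.23, adjusted p = 0.221). A second Myh6 probe, detected on 2 mutant and 2 control arrays, differed by -0.38 (-1.49 to 0.73). Tnni3, the cardiac troponin I gene, was near the background, detected on 2 mutant and 3 control arrays. Its log2 intensities were 6.95, 6.21 and 5.80 in mutants and 7.07, 8.26 and 6.11 in controls, a difference of -0.82 (-2.10 to 0.45, adjusted p = 0.291). Both intervals include 0, and neither sets the size of a difference closely.

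Myl4, the essential light chain of atrial muscle, was the atrial-type gene that fell. Its probe read 11362, 7690 and 6026 intensity units in mutant mice 1, 2 and 3, against 17967, 31801 and 14630 in control mice 1, 2 and 3. The normalized log2 values were 13.50, 12.94 and 12.60 in mutants and 13.83, 15.04 and 13.87 in controls. Mutant mouse 1 came within 0.33 of the lowest control, and control mouse 2 stood 1.19 above the mean of the other controls. Myl4 was 2.35-fold lower in mutants (log2 -1.23 ± 0.37, adjusted p = 0.0484). That call rested on every mouse: with any 1 left out, the adjusted p was between 0.0519 and 0.119, and the difference was -0.84 without control mouse 2.

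Myl7, the regulatory light chain of atrial muscle, had the larger difference but a wider spread. Its log2 intensities were 9.77, 8.90 and 8.45 in mutants 1, 2 and 3 and 10.27, 11.89 and 9.76 in controls 1, 2 and 3. Mutant mouse 1 and control mouse 3 were level, so the groups were not separate. The difference was -1.60 (95% interval -2.96 to -0.25, adjusted p = 0.0786), and -0.98 without control mouse 2, a 1.97-fold lower level in mutants in place of 3.04-fold.

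Nppa, which encodes atrial natriuretic peptide, was the steadiest member among controls. Its log2 intensities were 13.10, 11.94 and 12.17 in mutants 1, 2 and 3 and 13.02, 13.18 and 13.23 in controls 1, 2 and 3. Mutant mouse 1 stood within the control range, whereas the other mutants lay below it. The SD was 0.61 among mutants and 0.11 among controls. The difference of -0.74 (-1.42 to -0.06) did not pass (adjusted p = 0.0990), and without mutant mouse 1 it was -1.09 and did (0.0170).

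Sln encodes sarcolipin, a small inhibitor of the calcium pump SERCA that is made in atria and in some skeletal muscles. Its log2 intensities were 12.42, 11.78 and 11.77 in mutants 1, 2 and 3 and 12.17, 12.92 and 12.82 in controls 1, 2 and 3. Mutant mouse 1 was above control mouse 1. The difference of -0.65 (-1.26 to -0.03) did not pass (adjusted p = 0.107). As a set, the 4 atrial-type genes averaged 12.20, 11.39 and 11.25 in mutants and 12.32, 13.26 and 12.42 in controls, a mean difference of -1.06. The 5 ventricular or general genes averaged 9.23, 8.71 and 8.13 in mutants and 10.23, 11.53 and 10.67 in controls, a mean difference of -2.12. Myl3 (-4.11) and Actc1 (-3.26) weigh heavily in that mean, and Ttn (-1.66), Tnni3 (-0.82) and Myh6 (-0.73) lay nearer 0. The median difference was -0.99 for the atrial-type set and -1.66 for the ventricular or general set. Whether the sets differ from each other was not tested.

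**Figure D2:**
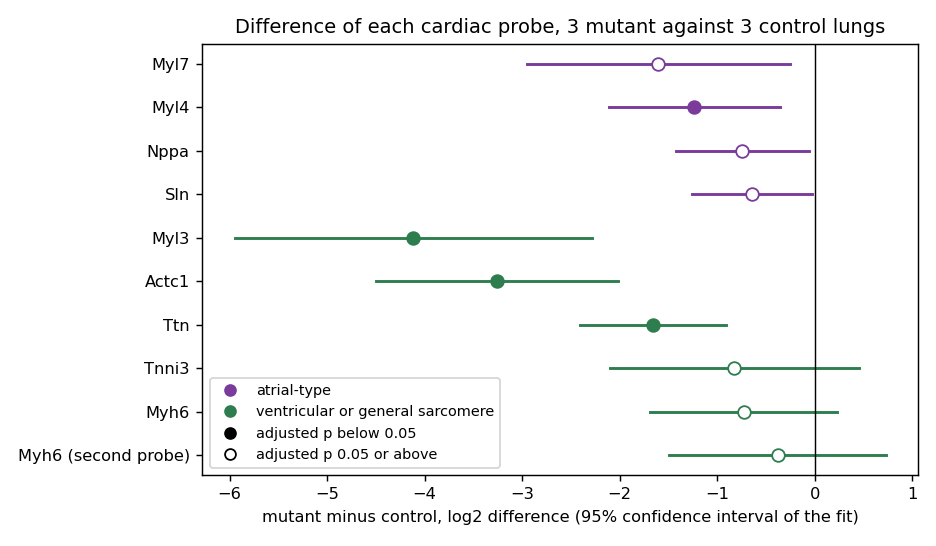
Mutant minus control difference on the log2 scale (horizontal axis) for each of the 10 probes, with the 95% confidence interval of the limma fit over 3 mutant and 3 control mice. Filled points passed an adjusted p of 0.05. Myl3 and Actc1 lie farthest from 0, and the intervals of Tnni3 and of both Myh6 probes cross 0.

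The control lungs differed among themselves more for these genes than for most. The SD among the 3 controls was 0.41 to 1.46 on the log2 scale for 8 of the members, above 91.5% to 99.7% of all genes tested, and Nppa was the exception at the 31.9th percentile. The median control SD over all genes was 0.16. Among mutants the members' SD was 0.25 to 1.00, against a median of 0.17 over all genes. The SD was larger among controls than among mutants for 8 of the 9 members, as was so for 46.6% of all genes. The members were measured in the same 6 lungs, so their spreads are not separate observations.

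The same few mice marked the extremes for most members. Control mouse 2 was the highest of the 6 mice for 7 of the 9 members, as for 21.0% of all genes, and control mouse 3 was highest for the other 2, Nppa and Myl3. Mutant mouse 1 was the highest mutant for 8 members, as for 31.0% of all genes. Mutant mouse 3 was the lowest of all 6 mice for 8 members, as for 26.5% of all genes, and for Nppa mutant mouse 2 was lowest. Without mutant mouse 1 the groups were separate for 8 of the 9 members, all but Tnni3, with mutants lower, as was so for 27.7% of all genes over the same 5 mice.

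**Figure D3:**
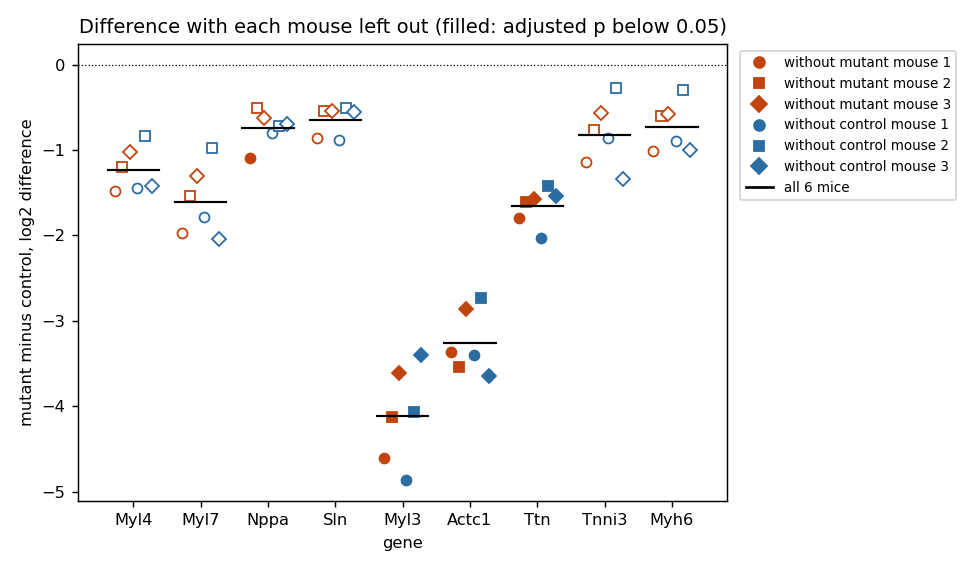
Mutant minus control difference on the log2 scale (vertical axis) for each member with 1 mouse left out at a time, and with all 6 mice as a black line. Filled symbols passed an adjusted p of 0.05. Every symbol lies below 0; Myl3, Actc1 and Ttn are filled throughout, Nppa only without mutant mouse 1, and the other 5 never.

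Around their own group means many pairs of members moved alike over the 6 arrays, to different degrees. Deviations of Myl7 followed those of Myh6 (Pearson r = 0.98), of Tnni3 (0.98) and of Myl4 (0.98). Deviations of Sln followed those of Ttn (0.93) and of Myl3 (0.83). Between these sets the values ran lower but not all low, with Myl4 and Sln at 0.73, Myl4 and Ttn at 0.71, Myh6 and Ttn at 0.61 and Myl3 and Tnni3 at -0.03. Actc1 was closest to Myl7 (0.87) and far from Nppa (0.06) and Myl3 (0.10), and Nppa was closest to Sln (0.78). With 6 arrays and 2 group means removed these are descriptions, and the points share the arrays and their normalization. Single mice also weigh in them. Control mouse 2 stood 1.88, 1.31, 1.67 and 1.19 above the mean of the other controls for Myl7, Myh6, Tnni3 and Myl4.

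**Figure D4:**
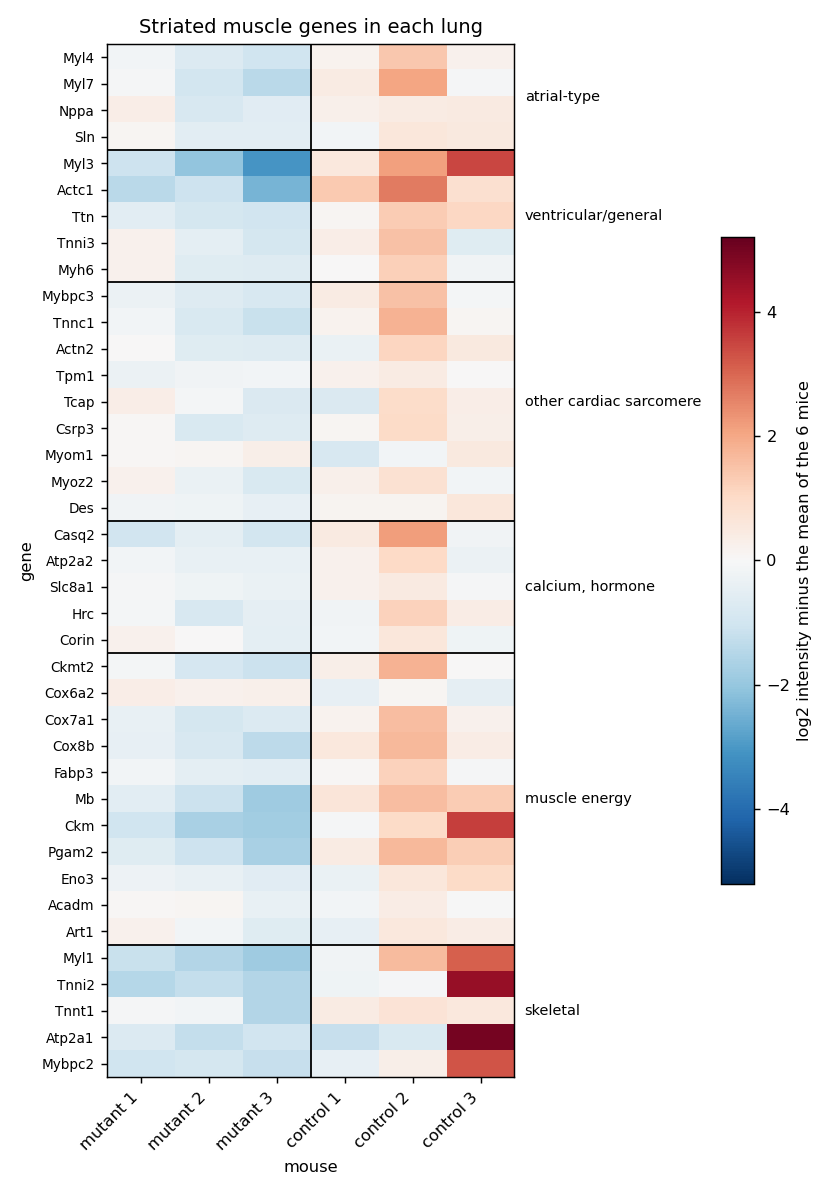
Log2 intensity of each gene minus its mean over the 6 mice (colour scale in log2 units), mutants in the 3 columns at the left and controls at the right, genes in rows by list. Most cardiac rows are highest in control mouse 2, while Myl3, Ckm and the fast skeletal muscle genes are highest in control mouse 3.

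The count for further heart sarcomere genes depended on the settings. Of 9 measured out of 16 listed, 1 fell and 8 had a negative difference, against 14.5% and 48.9% of all genes, with a median of -0.61. The count was 3 with median scaling, without background correction, with array weights or with a larger offset, 4 with a variance trend, and 0 without the filter. It was 2 without control mouse 3 and 0 without mutant mouse 2 or 3 or control mouse 2. Csrp3, a muscle LIM protein gene, missed the threshold at its brightest probe (-0.96, adjusted p = 0.0564), passed at another (-1.09, 0.0281) and missed it at the dimmest (-0.76, 0.120). The one that fell was Des, the intermediate filament protein desmin of all muscle types, at -0.57 ± 0.16 (adjusted p = 0.0392), and no single mouse could be left out without losing it (0.0634 to 0.0896). No probe named for the ventricular genes Myl2 and Myh7 was analysed here. Of 5 calcium-handling and hormone genes out of 11, none passed by limma's test, 3 were lower at an unadjusted p of 0.05 (21.2% of all genes were), and all 5 had a negative difference (median -0.63). Casq2, the cardiac calcium-storage protein calsequestrin, was detected on no mutant array and on all 3 control arrays. Its level in mutants was lower by at least 2.01-fold without passing (adjusted p = 0.0655). The bound was 1.26-fold without control mouse 2. Without control mouse 3 Casq2 passed (0.0295), and 2 genes of this list fell. Hrc, a calcium-binding protein of the same store, differed by -0.94 (0.0924).

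Conduction and atrial genes and cardiac transcription factors gave few calls. Of 6 conduction and atrial genes out of 11, 2 fell (14.5% of all genes did), with a median of -0.41. Gja5, which encodes a gap junction connexin of atrial muscle and of arterial endothelium, fell by 2.87 ± 0.18 on the log2 scale (adjusted p = 0.00165). Its mutants read 8.73, 8.87 and 9.05 and its controls 11.71, 12.07 and 11.48, both close together, so mutant mouse 1 was the lowest mutant and not the highest as for most members. Dkk3, a secreted protein related to Wnt inhibitors, fell by 0.64 ± 0.17, a call lost without control mouse 1 (adjusted p = 0.104) or 2 (0.0940) or mutant mouse 2 or 3. At second probes, Gja5 fell too (-2.82, adjusted p = 0.00194) and Dkk3 did not pass (-0.56, 0.0619). Stard10, of the same list, was not called at its brighter probe (0.26, 0.218) but was higher at its second (0.70, 0.0145). Of 6 transcription factor and cofactor genes out of 12, none passed by limma's test, with a median of -0.20, and at an unadjusted p of 0.05 2 were lower and 1 higher, near the shares of 21.2% and 20.5% over all genes. Ankrd1, a stress-responsive cofactor of heart muscle, differed by -1.40 (adjusted p = 0.0566) and Mef2c, a MEF2 factor, by -0.43 at its brightest probe (0.0815), while Tbx5, a factor of atria and lung mesenchyme, differed by 0.32 (0.373). The other Mef2c probes differed by -0.29 (0.180) and -0.81, and the last of these passed (0.0322). Ankrd1 passed in 7 of 15 alternative settings, without mutant mouse 1 (0.0358) among them, and its other probe did not pass (-0.82, 0.189). Gata6, of the same list, lay the other way, with every mutant above every control. Its difference of 0.33 did not pass (adjusted p = 0.0870), but did in 3 of 15 alternative settings. Without control mouse 2, 1 gene of the list fell.

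Some genes of muscle energy supply fell along with the sarcomere genes. Of 11 measured out of 12, 5 fell and none rose, against 14.5% and 12.7% of all genes, with a median of -1.35. Cox6a2, a cytochrome oxidase subunit of heart and skeletal muscle, lay the other way, with every mutant above every control. Its difference of 0.55 did not pass (adjusted p = 0.0518), but did in 7 of 15 alternative settings. Among these were the fit without control mouse 2 (0.0204) and median scaling (0.0345). Mb, the oxygen-storing myoglobin of heart and oxidative skeletal muscle, had log2 intensities of 9.79, 9.22 and 8.49 in mutants and 10.98, 11.97 and 11.65 in controls. It was 5.15-fold lower in mutants (log2 -2.36 ± 0.37, adjusted p = 0.00690), with the groups apart. Pgam2, the muscle phosphoglycerate mutase, was 4.77-fold lower (adjusted p = 0.00820) and Cox8b, a cytochrome oxidase subunit of heart, muscle and brown fat, 3.40-fold lower (0.0175). Ckm, the muscle creatine kinase, went undetected in all mutants, a level at least 5.37-fold lower (0.0378). That call was lost without control mouse 2 or any 1 mutant (up to 0.0901), and in 10 of 14 alternative settings in all. Control mouse 3 carried much of the bound for Ckm, which was 2.61-fold without that mouse and 9.24-fold without control mouse 1. In this list 3 genes fell without mutant mouse 1, and likewise 3 without mutant mouse 2 or 3.

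Among 2633 other genes with a range of at least 1 on the log2 scale, those most like the mean of the atrial-type members were Csrp3 (Pearson r = 0.992), Ctnnd2 (0.992), Art3 (0.977), Ckmt2 (0.975), Tnnc1 (0.975) and Fndc5 (0.969). Ckmt2 encodes the sarcomeric mitochondrial creatine kinase and Tnnc1 the troponin C of heart and slow muscle. Those most like the mean of the other members were Srpk3 (0.996), Pgam2 (0.993), St8sia2 (0.990), Mb (0.989), Smo (0.987) and Cox8b (0.983). Srpk3 is a muscle-specific protein kinase, and St8sia2 a sialyltransferase. The highest of 2633 values over 6 arrays is large by selection, and these are given as a description.

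Markers of skeletal muscle and fat also differed between the mice, and their part in the cardiac values was not tested. Of 18 skeletal muscle genes listed 6 were measured, 2 fell and all 6 had a negative difference, against 14.5% and 48.9% of all genes. Their mean log2 intensity was 6.39 to 6.97 in mutants and 7.60, 8.34 and 11.21 in controls 1, 2 and 3, so control mouse 3 stood apart. Ckm and Mybpc2, a myosin-binding protein of fast muscle, were detected on no mutant array. Ckm, 1 of the 2 that fell, is also counted in the muscle energy list. Myl1, a light chain of fast skeletal muscle, read 9.57, 9.19 and 8.88 in mutants and 10.52, 12.35 and 13.82 in controls. It therefore had the same order of controls as Myl3, and it was 8.10-fold lower in mutants (adjusted p = 0.0253). That call was lost without control mouse 2 or any 1 mutant (up to 0.0735), and in 7 of 15 alternative settings in all. The fold was 4.67 without control mouse 3 and 14.7 without control mouse 1. Myl3 fell without control mouse 3 too (adjusted p = 0.0219). Of the skeletal list, 4 genes fell when control mouse 3 was removed and 1 when mutant mouse 3 was. None fell if the mouse removed was mutant 1, mutant 2 or control 2. With all 6 mice, 0 fell with array weights and 3 with median scaling.

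Several fat cell, mesothelial and smooth muscle markers fell as well, where 14.5% of all genes did. Of 4 adipocyte genes out of 8, 2 fell, and the list averaged 5.91 to 6.42 in mutants and 8.08, 10.29 and 7.59 in controls 1, 2 and 3, highest in control mouse 2 as most members were. Car3, a carbonic anhydrase of fat and muscle, also undetected in mutants, was lower by at least 11.5-fold (adjusted p = 0.00810), or 5.73-fold without control mouse 2. Adipoq, the fat hormone adiponectin, fell by 3.43 ± 0.98 (0.0409). That call was lost without control mouse 1 or any 1 mutant (up to 0.101), and in 8 of 14 alternative settings in all. The Adipoq difference was -2.27 without control mouse 2 and -4.49 without control mouse 3. Of 5 mesothelial genes 4 fell, led by Upk3b at -1.54 ± 0.28 (0.00975), and the list averaged 8.90 to 9.21 in mutants and 9.65 to 10.15 in controls. The mesothelial gene Msln did not pass, with a difference of 0.06. In this list 2 genes fell without mutant mouse 1, control mouse 1 or control mouse 2. Of 8 smooth muscle genes 7 fell, led by Actg2 at -1.63 ± 0.21, and the list averaged 9.95 to 10.39 in mutants and 10.98 to 11.43 in controls, with less spread among controls than the cardiac members. Myh11, of the smooth muscle list, did not pass, with a difference of -0.47.

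Lung epithelial markers, which check the tissue label, were near the top of the scale on all arrays. None of 7 passed by limma's test, and 0 did at an unadjusted p of 0.05. Their mean was 14.66 to 14.76 in mutants and 14.63 to 14.75 in controls. Of 4 endothelial genes 3 fell, Emcn, Tek and Cdh5, as did 14.5% of all genes. Pecam1, also of this list, did not pass, with a difference of -0.03. The list averaged 12.27 to 12.59 in mutants and 12.91 to 13.22 in controls. In this list 2 genes fell without mutant mouse 1 or 2 or any 1 control. Hba-a1, the alpha globin gene of red cells, varied most among controls, reading 10.12, 9.77 and 10.10 in mutants and 14.06, 15.97 and 8.59 in controls 1, 2 and 3. It was thus highest in control mouse 2, and its difference did not pass (adjusted p = 0.238), except without control mouse 3 (-5.02, 0.00603), and was -1.33 without control mouse 2. The targeted gene Tmem100 read 8.44, 9.43 and 9.51 in mutants and 11.16, 15.36 and 10.69 in controls, again highest in control mouse 2. Whether its probe lies in the loxP-flanked stretch is not stated in the labels. Its difference of -3.28 did not pass (adjusted p = 0.0749) but did without control mouse 2, at -1.80 (0.0283), and it was -4.13 without control mouse 3.

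**Figure D5:**
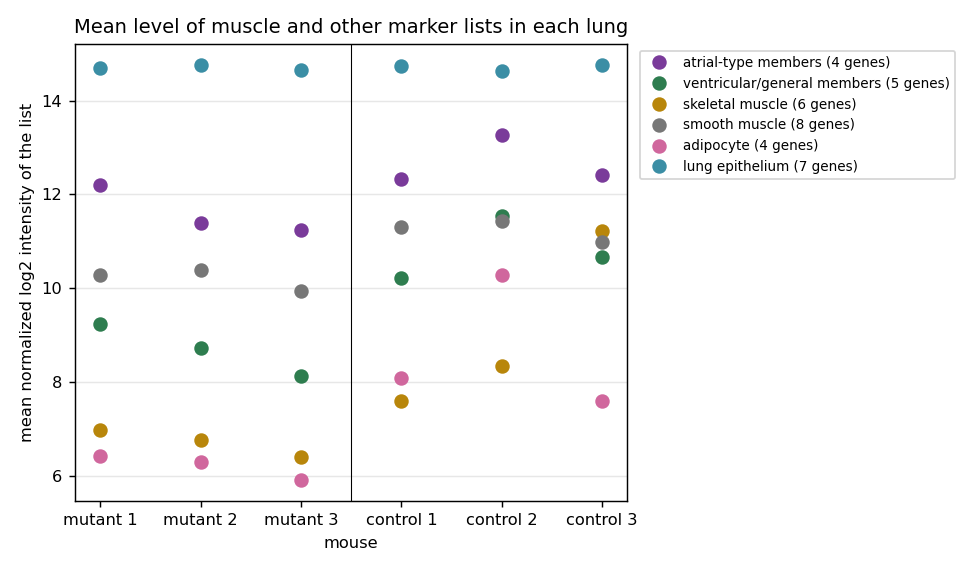
Mean normalized log2 intensity (vertical axis) of 6 gene lists in each mouse, mutants at the left and controls at the right, 1 point per list and mouse. The cardiac, smooth muscle and adipocyte lists are highest in control mouse 2, the skeletal list in control mouse 3, and the lung epithelial list lies between 14.63 and 14.76 in all 6 lungs.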

How the data were processed

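Biotin-labelled cRNA from 6 lungs was hybridised to Illumina bead arrays, per the labels' protocols. The deposited unnormalized table holds, per the file headers, a linear intensity and a detection p-value for each probe and array. A deposited table of log2 processed values covers 13261 probes. In it the columns of mutant mice 1 and 2 are identical at all 13261 probes, so it served only as an alternative, without mutant mouse 1. The submitters' processing notes list GenomeStudio 2009.2 and R 2.4.1 but give no role for either. No label states background subtraction, chip or scan.

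The neqc function (limma 3.58.1, R 4.3.3; offset 16) corrected the background, with negative controls inferred from detection p, and normalized by quantiles. The test took the 13361 probes that at least 3 of 6 arrays detected at p below 0.05, by lmFit and eBayes without covariates, Benjamini-Hochberg adjusted over all of them. Median intensity was 333 to 363, and 12781 to 13749 probes were detected per array. The number of arrays limits precision. A single gene symbol was given for 12495 probes, of which 12490 were updated by Entrez identifier through RefSeq, none had several, and 13202 were unnamed here. A gene was its tested probe with the highest mean. All 10 member probes passed the filter. A fold against a group with no detected array is a bound: the brighter group's mean against, per array, the higher of the probe's value and the lowest detected value.

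Members and lists were chosen with earlier results of these data known. Named were all members, Tmem100, up to 4 called genes of a list by size of change (else the 2 with the lowest p), a few fixed heart genes, and the 6 most alike genes for each mean profile. Of the fixed heart genes reported here, Nppb, Bmp10, Nkx2-5 and Hcn4 had no named probe analysed here. Mybpc2, Cox6a2, Stard10, Gata6, Pecam1, Msln and Myh11 were named after their values were seen. So were the further probes of Csrp3, Mef2c, Ankrd1, Dkk3 and Gja5 and the smaller falls. The mice are separate animals. The fit was tested on simulated data. Alternatives changed the background correction, scaling, filter, variance model, array weights, source of values, pairing, probe rule and the mice.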

Additional observations from a re-analysis of the deposited data

How the results depend on the processing

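All 143 recomputed differences of single members over the alternatives were negative; 130 kept their side of the threshold, 10 lost the call and 3 gained it. The 10 were all of Myl4, which lost it with any 1 mouse left out, without the filter (adjusted p = 0.0745), with a variance trend (0.0599), with array weights (0.0628) and with the replicate block (0.0655). Nppa gained it without mutant mouse 1 and with the authors' processed values (0.00822), and Sln with those values (0.0448), which hold no separate mutant mouse 1. Myl3, Actc1 and Ttn passed under all alternatives, with adjusted p up to 0.0393, 0.0290 and 0.0360. The count of members called was 3 or 4 with 1 mouse left out and 3 to 6 otherwise. The groups were apart for 4 to 8 members with 1 mouse left out, and for 8 with the authors' processed values, where fewer mice are compared; over all genes 26.8% to 29.2% and 27.7% were apart with mutants lower in these comparisons. The count of all probes past the threshold, 3573, was 1664 to 3067 with 1 mouse left out, the lowest when control mouse 1 was removed; it was 2078 without mutant mouse 1 and 2108 without control mouse 2. Mouse numbers do not pair the mice: deviations of same-numbered mice correlated at -0.09, -0.01 and -0.04, and with the number as a replicate block 2642 probes and 3 members passed. Tnni3 and the second Myh6 probe were too near the background for the strict filter, and for such probes a fold can be understated. Neither was called with all 6 mice, and both intervals included 0.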
